A study of Caenorhabditis elegans with 35 samples.

Results

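The cuticle collagens of Caenorhabditis elegans are the structural proteins of the larval and adult exoskeleton. They were taken here as every gene whose deposited symbol is col followed by a number, together with 16 named body shape and strut collagens. On the array 151 probe sets met this rule, and counting those with identical values once left 147 distinct probe sets of 143 genes, of 20806 probe sets in all. Of these genes 127 have col symbols, and 4 genes have a pair of distinct probe sets. In the reference gene table the genes lie on chromosome IV (37 genes), II (31), V (24), X (22), I (19) and III (10). The family holds near-identical copies, so signal from a sister gene cannot be separated from a gene's own.

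The arrays measured RNA of whole worms labelled as L3 larvae, the third larval stage, in 35 preparations. The F4 and F5 generations each held 3 groups: wild type from a wild-type lineage, labelled +/+ (from +/+) and called controls below; genetically wild-type animals descended from mutants, labelled +/+ (from wdr-5) and called descendants; and homozygous mutants, labelled wdr-5/wdr-5. The product of wdr-5.1 is part of the histone H3 lysine 4 methyltransferase complexes. Each group had 3 arrays on each of 2 birth days, except the F5 descendants, which had 2 on birth day 1. The label names no allele or strain, and nothing in it says that arrays of a group came from separate cultures, so p-values measure only the spread between these arrays, which may be technical.

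A new cuticle is made beneath the old one before each moult. The underlying hypodermis secretes collagens in waves, and each stage uses its own selection of them. The furrow collagens form the rings that run around the body, and their loss makes worms short and fat (dumpy). Other members set body length or twist, build the struts of the adult cuticle, or are made in 1 stage only, such as col-19 in the adult. Collagen chains are hydroxylated, folded, trimmed by proteases and cross-linked before they form the matrix.

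All values are taken as log2 levels, a base read from their range. The birth days were taken to be normalized separately, since their low percentiles differ, so each comparison was made within a day or with a birth day term. Tests used limma over all 20806 probe sets, two-sided, with Benjamini-Hochberg adjustment and a threshold of 0.05, and ± gives the standard error of a difference. Arrays of the same group and day correlated at 0.973 to 0.997 over all probe sets. wdr-5.1 itself read 4.01 to 5.91 on the mutant arrays and at least 8.30 on all others. Of the members, 110 lay above the median of their array on all 35 arrays and 1 lay under the 25th percentile on all of them. That 1 was col-40, a collagen known from dauer larvae, at 3.08 to 4.35. Col-2, also known from dauer larvae, lay above the array median on all 35 arrays, at 5.62 to 7.07. The adult collagen col-19 and the 6 yolk protein genes, which are known for adult expression, lay above the array median on all 35 arrays, although the label is L3. Their margin was small on some arrays: the lowest readings were 5.69 for col-19 and 5.55 for vit-2, beside array medians of 5.35 to 5.50. In RNA of whole worms, fewer cells making a transcript and less of it per cell cannot be told apart.

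The collagens varied more between arrays than most genes. Within birth days the median SD was 0.263 for the members and 0.180 for all probe sets. An SD above 1 was reached by 17 members of 16 genes (11.6%), against 0.461% of all probe sets. Col-81 varied most, with an SD of 1.73, followed by col-139 (1.66) and col-19 (1.62). At the other end stood sqt-3 (0.075) and dpy-13 (0.083), both body shape collagens, with mean levels of 12.96 and 14.14 near the top of the array's range. Whether saturation narrows their spread was not tested. An SD under 0.3 was found in 85 members. These genes were picked after their values were seen.

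**Figure D1:**
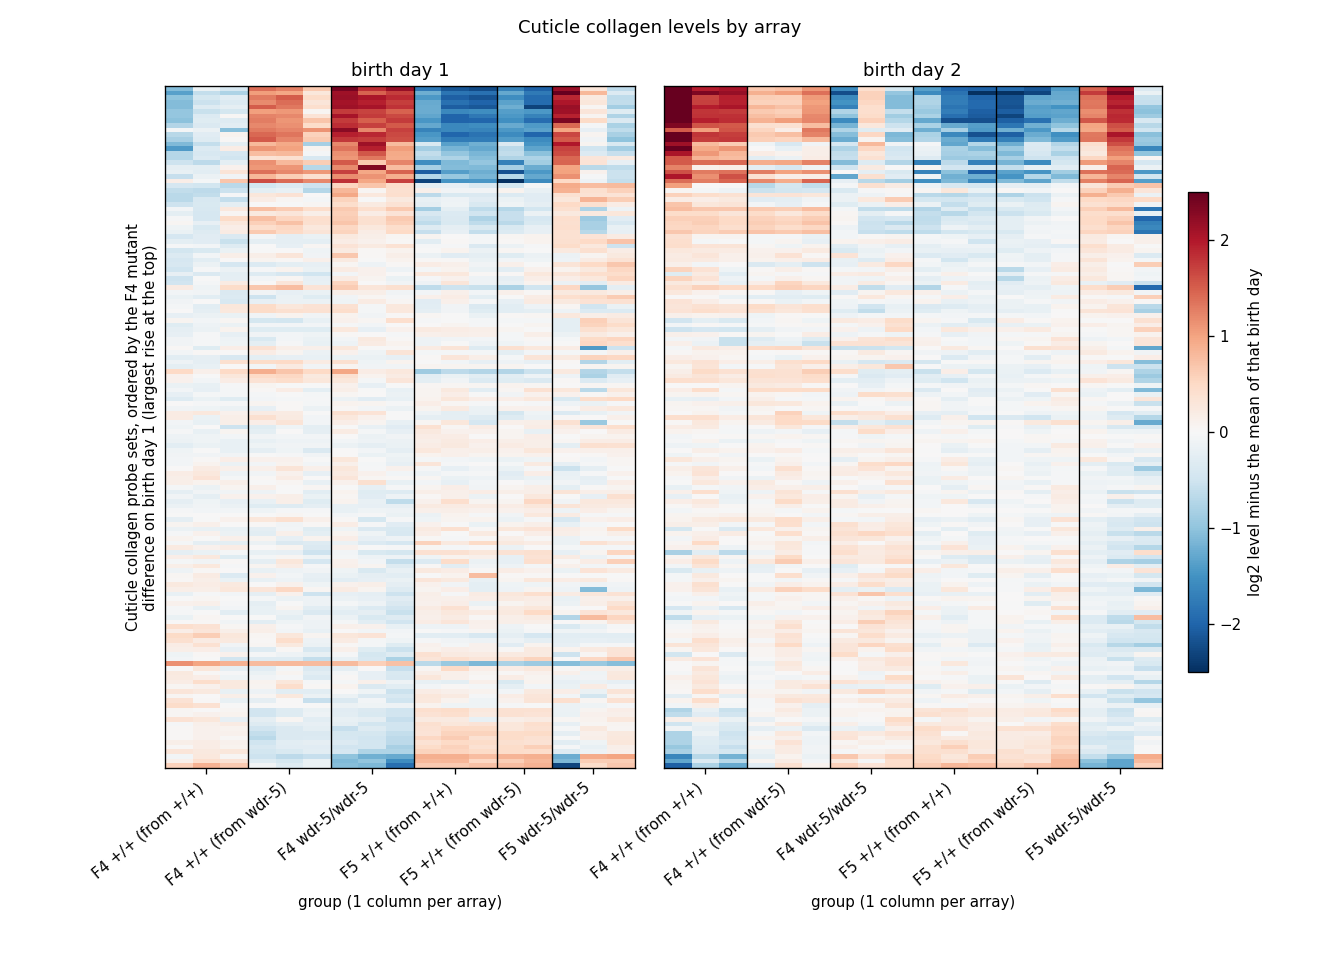
Level of each of the 147 collagen probe sets (rows) on every array (columns) as log2 level minus the mean of that birth day, with colours capped at 2.5 on either side. Rows are ordered by the F4 mutant difference from controls on birth day 1. The top rows are high in F4 mutants on day 1, in F4 controls on day 2 and on some F5 mutant arrays, and the bottom rows do the reverse.

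Set against the controls, the collagens of F4 mutants moved in opposite directions on the birth days. On day 1, 34 members were higher than in controls and 18 lower, beside 15.6% and 21.0% of all probe sets. On day 2, 20 were higher and 30 lower, beside 7.29% and 6.08%. As shares of the members, the rises of day 1 and both counts of day 2 lie above these background shares, and the falls of day 1 lie below theirs. Of the 35 members called on both days, 25 were higher on day 1 and lower on day 2, 10 did the reverse, and 0 kept their direction. Calls on both days were made in 23.8% of members and 5.56% of all probe sets, and of those 1156 probe sets 784 had opposite directions and 372 the same. A change of the mutant difference from day 1 to day 2 passed the test in 70 members, 27 upward and 43 downward (all probe sets: 17.9% and 15.1%). Day 1 and day 2 values correlated at r = -0.92 over the members and at -0.38 over the whole array. F4 descendants gave -0.82 and -0.62, but against the same control arrays, so this likeness is not a separate result. For mutants against descendants the values were -0.37 and 0.23, and 1 member (0.680%) was called on both days, beside 2.23% of all probe sets. Genes are not independent replicates, and the correlations carry no test.

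The 6 furrow collagens fell together on day 1 and rose together on day 2. The dpy-7 gene, whose product lines the furrows, read 10.20, 10.26 and 10.17 on the F4 control arrays of day 1 and 9.72, 9.60 and 9.40 on the mutant arrays. On day 2 the controls read 9.24, 9.72 and 9.62 and the mutants 10.07, 10.16 and 10.08. Neither day showed overlap between the groups, and the low group of day 1 was the mutant while that of day 2 was the control. The dpy-7 differences were -0.64 ± 0.13 (adjusted p = 0.000548) and 0.58 ± 0.13 (adjusted p = 0.00329). For dpy-8, another furrow collagen, they were -0.69 ± 0.12 and 0.65 ± 0.12. The 6 genes ranged from -0.69 to -0.45 on day 1 and from 0.48 to 0.78 on day 2, with medians of -0.58 and 0.61, beside medians of -0.08 and 0.01 over all probe sets. All 6 passed the test on both days and for the change between them.

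The adult collagen col-19 moved the other way and much further. It read 7.31, 8.09 and 8.18 in F4 controls of day 1 and 10.52, 10.48 and 10.21 in the mutants. On day 2 the controls read 10.76, 9.83 and 9.90 and the mutants 6.18, 8.29 and 6.79. The groups did not overlap on either day, and the control arrays themselves stood on opposite sides of the mutants. The differences were 2.54 ± 0.61 (adjusted p = 0.00201) and -3.08 ± 0.61 (adjusted p = 0.000843), with a change between days of -5.62 ± 0.87. No other adult collagen of the list had a probe set here.

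Several collagens known only by number followed col-19. For col-81 the controls read 7.65, 8.43 and 8.23 on day 1 and 11.67, 10.98 and 10.81 on day 2, and the mutants 11.14, 10.48 and 10.75, then 6.43, 9.22 and 7.67. Its change between days, -6.06 ± 0.83, was the largest of any member. It was -5.48 ± 0.72 for col-139, -4.44 ± 0.61 for col-124 and -3.96 ± 0.54 for col-137. Also in this direction was col-120, a collagen linked to long life in other work, at 1.23 ± 0.44 on day 1 and -1.96 ± 0.44 on day 2. The 5 collagens listed as made in the L4 stage pointed the same way, with a median of 0.52 on day 1 (0 called) and -0.84 on day 2 (col-49 and col-138 lower).

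A few members sided with the furrow set. Col-41 read 11.67, 11.96 and 11.74 in controls of day 1 against 10.02, 9.98 and 9.22 in mutants, and 9.02, 10.28 and 9.80 against 11.65, 11.41 and 11.51 on day 2. Its change between days was 3.87 ± 0.66, the largest upward, and the groups did not overlap on either day. Col-128 went from -0.92 ± 0.13 to 0.61 ± 0.13.

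**Figure D2:**
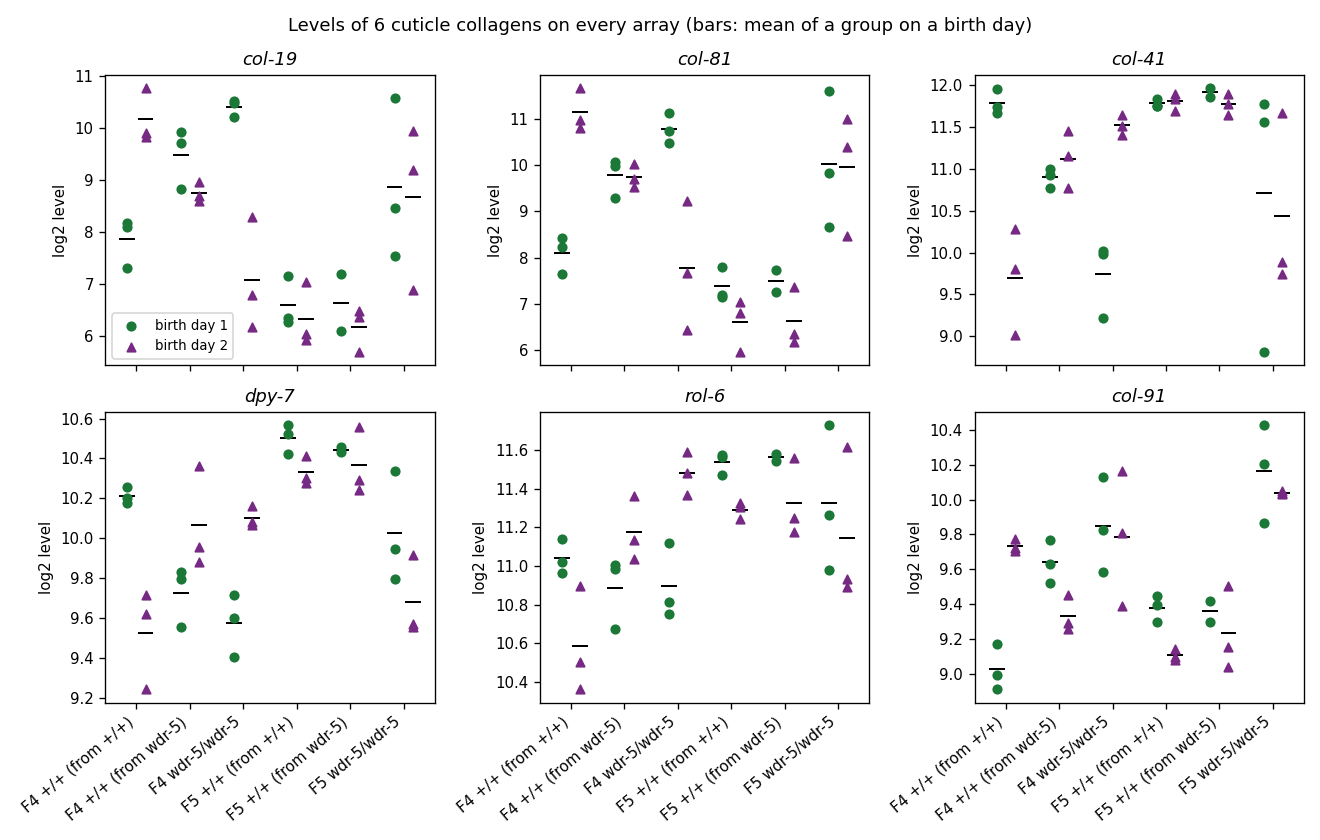
Log2 level of col-19, col-81, col-41, dpy-7, rol-6 and col-91 on every array by group; circles are birth day 1, triangles birth day 2 and bars the mean of a group on a day. The F4 controls of col-19 lie at 7.31 to 8.18 on day 1 and at 9.83 to 10.76 on day 2, while the F4 mutants cross over them.

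Fewer of the other body shape collagens passed the test. On day 1 lon-3, whose loss makes worms long, fell by 0.37 (SE 0.12) and dpy-17 rose by 0.29 (SE 0.11), and the other 6 of the 8 were not called. On day 2 rol-6, in which dominant alleles make worms roll, rose by 0.89 (SE 0.16), sqt-2 by 0.54 (SE 0.12) and sqt-1 by 0.37 (SE 0.13). The strut collagens bli-1 and bli-2, whose loss blisters the adult cuticle, were not called on either day, at 0.13 ± 0.27 and 0.05 ± 0.26 on day 1 and -0.63 ± 0.27 and -0.55 ± 0.26 on day 2. The dauer collagens col-2 and col-40 were not called on either day.

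With the days pooled, 8 members passed in F4 mutants, 7 higher and 1 lower, beside 4.77% and 5.53% of all probe sets. As shares of the members, the rises lie at the background and the falls below it, so the collagens did not stand out in number. None of the furrow collagens was among the 8, with pooled differences of -0.03 to 0.10. The 7 were col-176 (0.42 ± 0.12), dpy-17 (0.28 ± 0.08), col-76 (0.39 ± 0.12), col-103 (0.34 ± 0.10), col-91 (0.44 ± 0.14), col-98 (0.34 ± 0.11) and col-150 (0.47 ± 0.15), and the 1 was col-115 (-0.28 ± 0.09). Col-91 was higher than controls on day 1, at 10.13, 9.58 and 9.82 against 8.91, 9.17 and 8.99. On day 2 the groups overlapped, at 9.39, 9.81 and 10.16 against 9.72, 9.71 and 9.77, and the difference of 0.05 ± 0.15 was not called. Leaving out single arrays gave 2 to 9 calls, and 2, 3, 4 or 5 without mutant replicate 1, 2, 3 or 6 or control replicate 1, 2, 3, 5 or 6.

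**Figure D3:**
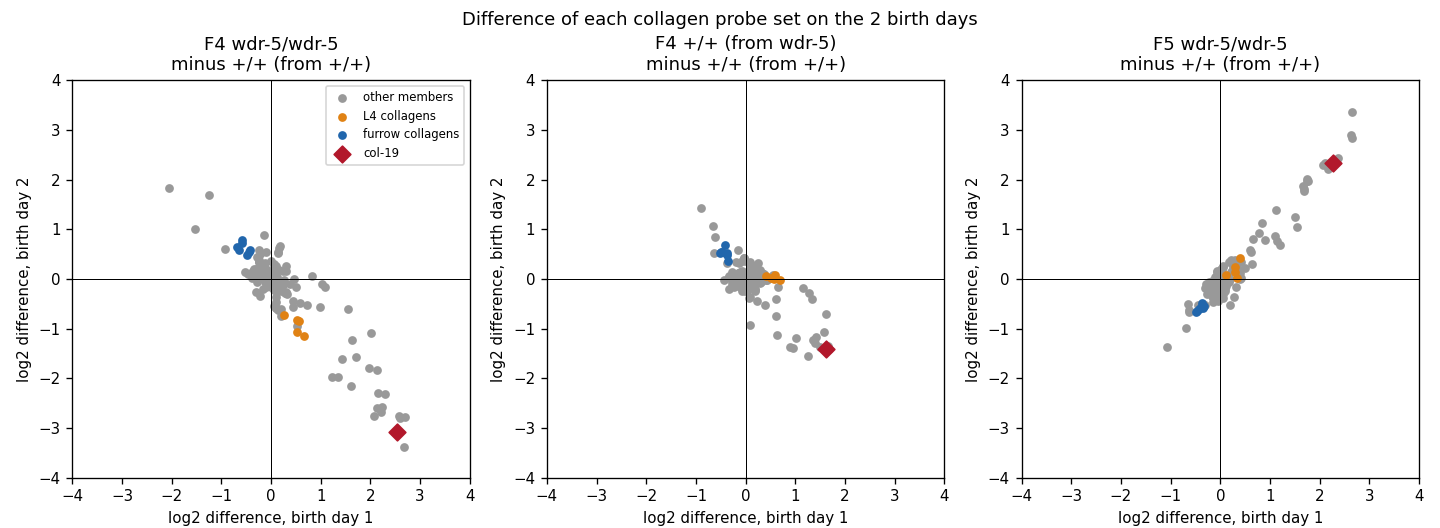
Difference from the controls of each of 147 collagen probe sets on birth day 1 (x axis) and birth day 2 (y axis), in log2 units, for F4 mutants, F4 descendants and F5 mutants; colours mark furrow collagens, L4 collagens and col-19. Points run from upper left to lower right in F4 mutants (r = -0.92) and F4 descendants (r = -0.82) and along the rising diagonal in F5 mutants (r = 0.97).

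Genes known for moulting, yolk and oocytes moved on the same arrays. Over all 20806 probe sets, 3251 rose and 4374 fell on day 1, and 1516 rose and 1264 fell on day 2. Of 15 moulting genes, 0 rose and 11 fell in F4 mutants on day 1 (median -0.54), and 8 rose and 0 fell on day 2 (median 0.53). Among them lpr-3, a lipocalin needed for the apical matrix, changed from -0.61 ± 0.11 to 0.53 ± 0.11. Of the 6 yolk genes, 3 rose on day 1 and 1 fell on day 2, with medians of 1.80 and -1.84. The 6 oocyte and eggshell genes rose on day 1 (6 of 6) and fell on day 2 (5 of 6). The mean level of the yolk list was 8.62 to 9.39 on F4 control arrays and 10.6 to 11.3 on mutant arrays of day 1, then 10.3 to 11.5 against 8.05 to 10.6 on day 2. Their part in the collagen result was not tested.

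Genes that make or control the cuticle are to be read beside the shares of all probe sets, 15.6% higher and 21.0% lower on day 1 and 7.29% and 6.08% on day 2. Of 15 collagen processing genes, 0 rose and 4 fell on day 1, and 2 rose and 3 fell on day 2, so the falls of day 1 are near that background. The peptidyl-prolyl isomerase fkb-5 fell on both days, by 0.49 (SE 0.09) and 0.44 (SE 0.09). On day 2 mlt-7, a peroxidase that cross-links the matrix, fell by 0.63 (SE 0.13), and the proprotein convertase bli-4 by 0.53 (SE 0.12). Of 16 regulators 7 fell on day 1 and 1 rose on day 2. Of these, lin-29, a transcription factor of the larval to adult switch, fell by 0.62 (SE 0.10) on day 1. myrf-1, a membrane-bound transcription factor, fell by 0.65 (SE 0.15) on day 1 and rose by 0.55 (SE 0.15) on day 2. The basement membrane collagens emb-9 and let-2, which are not cuticle components, changed little: let-2 fell by 0.26 (SE 0.09) on day 1, and emb-9 was not called on either day (-0.19 and 0.08).

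In F5 mutants the collagens changed the same way on both days. With days pooled, 35 members rose and 17 fell, beside 16.9% and 16.1% of all probe sets; 35 of 147 lie above the background, and 17 below it. On day 1 the counts were 34 and 9 (12.8% and 12.4%), and on day 2 they were 26 and 18 (11.3% and 7.83%). After quantile normalization the day 2 counts were 26 and 30. The 35 members called on both days held 26 that were higher on both and 9 that were lower on both. These are 23.8% of members, beside 11.6% of all probe sets called on both days (2409, of which 2407 kept their direction). A change from day 1 to day 2 passed in 0 members by limma, beside 15 calls (0.0721%) over all probe sets. An unadjusted p under 0.05 was found in 5 of 147 members and in 1861 of all 20806 probe sets. Day 1 and day 2 values correlated at r = 0.97 over the members and 0.82 over the whole array, again without a test.

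The rises were led by col-91 and col-142 in certainty and by col-81 in size. Col-91 read 9.39, 9.45, 9.30, 9.10, 9.08 and 9.14 in F5 controls and 9.87, 10.43, 10.21, 10.03, 10.05 and 10.04 in mutants, with the first 3 of each on day 1. Col-142 read 9.17, 9.20, 9.02, 9.06, 8.79 and 8.77 in controls and 10.32, 10.17, 10.19, 9.50, 9.82 and 9.90 in mutants. Both genes were higher on all 6 mutant arrays than on all 6 control arrays. Their pooled differences were 0.86 ± 0.14 (adjusted p = 2.36e-05) and 0.98 ± 0.17 (adjusted p = 5.65e-05).

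The large rises of col-19 and col-81 came from some mutant arrays more than others. Col-19 read 10.57, 8.46 and 7.55 on the mutant arrays of day 1 and 9.20, 9.93 and 6.89 on those of day 2, against 6.28 to 7.16 and 5.93 to 7.04 in controls. Of the 6 mutant arrays 5 were above every control array of their day. The pooled difference was 2.30 ± 0.65 (adjusted p = 0.00706), and that of col-81 was 3.01 ± 0.67. Col-139 (2.75 ± 0.60), col-129 (2.77 ± 0.55), col-60 (1.88 ± 0.41) and col-120 (1.77 ± 0.41) rose with them.

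The spread of the collagens among F5 mutant arrays was wider than in other groups. A range over 1 was found in 33 members across the 3 mutant arrays of day 1 and in 38 across those of day 2, against at most 14 in any other group and day. The F5 descendants of day 1 have 2 arrays, which narrows their range. Ranges were not counted over all probe sets, so these counts do not show whether the wider spread is particular to collagens. Replicate 1 on day 1 and replicates 4 and 5 on day 2 were high for col-19 and low for col-41 (8.81, 9.89 and 9.74), while replicates 2, 3 and 6 read 11.56, 11.78 and 11.66. Col-91 and col-142 were high on all 6. On the same arrays the yolk gene vit-2 read 10.77, 10.08 and 10.72 on replicates 1, 4 and 5 and 8.59, 7.22 and 8.57 on the others. It is the only yolk gene given by array here, so these readings do not speak for the rest of the list. Whether that spread bears on the collagens was not tested. Leaving out each array in turn gave 45 to 60 called members.

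The furrow collagens fell in all 6 genes, with pooled differences of -0.58 to -0.43 and a median of -0.50 against -0.03 over all probe sets. The dpy-7 level was 10.42, 10.57, 10.52, 10.28, 10.41 and 10.30 in controls and 9.80, 9.95, 10.34, 9.56, 9.57 and 9.92 in mutants. Within each day no mutant array reached the lowest control. Dpy-7 fell by 0.56 (SE 0.15, adjusted p = 0.00415) and dpy-8 by 0.58 (SE 0.15, adjusted p = 0.00449). Of the remaining shape and strut collagens, lon-3 (-0.42 ± 0.10) and bli-1 (-0.58 ± 0.20) fell and the other 8 did not pass. Bli-1 read 9.86, 8.26, 9.17, 10.19, 9.99 and 8.74 in mutants and 9.36 to 10.29 in controls, so the groups overlapped. None of the 5 L4 collagens was called (median 0.22).

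With days pooled, 3519 of all 20806 probe sets rose in F5 mutants and 3359 fell. The list counts that follow are to be read beside these. Moulting genes fell in all 15 of 15 (median -0.56), and the 6 yolk and 6 oocyte genes all rose (medians 1.99 and 1.46). The mean level of the oocyte list was 6.81 to 7.47 in F5 controls and 7.62 to 9.78 in mutants. Of 15 processing genes 1 rose and 7 fell. They included fkb-5 (-0.69 ± 0.08), the disulfide isomerase pdi-2 (-0.34 ± 0.05) and dpy-18, a subunit of prolyl 4-hydroxylase (-0.31 ± 0.07). Of 16 regulators 1 rose and 8 fell, led by lin-29 (-0.75 ± 0.08) and the zinc finger gene bed-3 (-0.71 ± 0.13). The part of the yolk, oocyte and moulting genes in the collagen result was not tested.

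**Figure D4:**
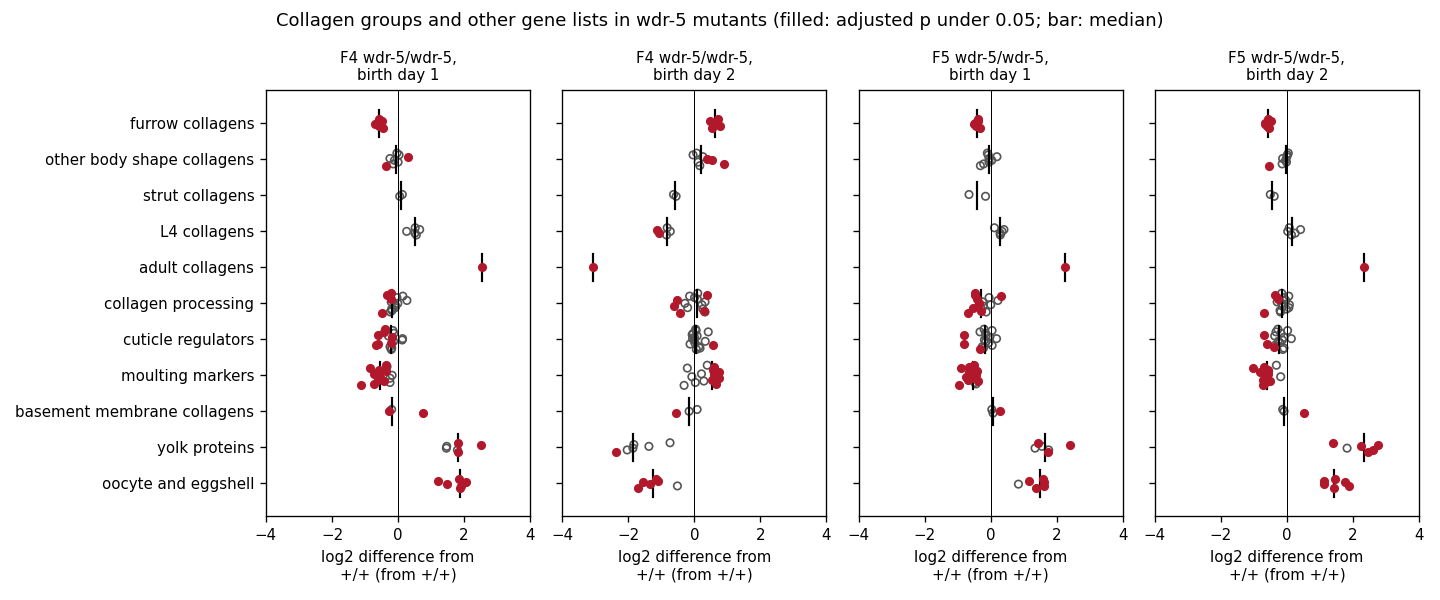
Log2 difference of each gene from the controls of its generation and day in 4 mutant comparisons, by gene list; filled points passed an adjusted p of 0.05 and bars mark the list median. The medians of furrow collagens and moulting genes lie left of 0 in F4 mutants on day 1 and in F5 mutants on both days and right of 0 in F4 mutants on day 2, while those of yolk and oocyte genes lie opposite.

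The mutant comparisons of F4 day 1 and F5, which share no arrays, called many of the same members. Of the 52 called in each, 39 had the same direction (75% of each list) and 0 the opposite. Over all probe sets the same direction was shared by 56.2% of the 7625 calls of F4 day 1 and 62.3% of the 6878 of F5. The F4 mutants of day 2 shared 1 of 50 calls with F5, and 31 of 50 (62%) were opposite, which is 59.6% of the 52. Over all probe sets 21.2% of the day 2 calls were shared and 19.3% opposite. A direct test, added after the data were seen, asked whether the mutant difference changed from F4 to F5. It called 0 members on day 1 (0.327% of all probe sets) and 64 on day 2, 35 higher and 29 lower in F5 (11.5% and 8.73%).

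In F4 descendants 0 to 5 collagens passed the test against controls. The pooled test called 0 of 147 and 0 probe sets in all (0.00%), with 8 members at an unadjusted p under 0.05 (750 of all 20806 probe sets). Within days, 2 rose and 3 fell on day 1 (0.269% and 0.476%, or 0.745% together), and 1 rose and 1 fell on day 2 (0.163% and 0.0673%, or 0.231% together). At an unadjusted p under 0.05 there were 47 members on day 1 (3948 of all probe sets) and 47 on day 2 (1804 of all). On day 1 col-137 (1.62 ± 0.38) and col-91 (0.62 ± 0.15) rose, and col-128 (-0.64 ± 0.13), col-149 (-0.43 ± 0.10) and dpy-9 (-0.52 ± 0.13) fell. On day 2 dpy-8 rose by 0.68 (SE 0.12) and col-142 fell by 0.93 (SE 0.17, adjusted p = 0.0106). The difference in col-142 was -0.59 without control replicate 4, which read 10.23 (adjusted p = 0.158), and it also missed the threshold without any 1 of the 3 descendant arrays of that day (adjusted p = 0.0513 to 0.0720). Without single arrays the day 1 count was 0 to 11 and the day 2 count 0 to 11. It was 0 on day 1 without descendant replicate 1 or control replicate 1 or 2 and 11 without control replicate 3; on day 2, 0 without descendant replicate 5 or control replicate 4 and 11 without control replicate 5.

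The change between days in F4 descendants was called in 22 members, 8 higher and 14 lower on day 2, beside 0.932% and 0.880%, or 1.81% together, of all probe sets. All 6 furrow collagens were among the rises, with a median change of 1.03, from -0.45 on day 1 to 0.53 on day 2. Against the control values of dpy-7 given above, the descendants read 9.55, 9.80 and 9.83 on day 1 and 9.96, 10.36 and 9.88 on day 2. The descendants sat below the controls on day 1 and above them on day 2, with no overlap. Col-139 changed by -3.07 ± 0.72 and col-81 by -3.09 ± 0.83. For col-19 the change of -3.04 ± 0.87 had an adjusted p of 0.0588. Without 1 array the count was 7 to 31, and it was 14 or fewer without control replicate 1, 2 or 4 or descendant replicate 1, 5 or 6. F4 mutants and F4 descendants were set against the same control arrays, so the likeness of their differences is not a separate result. The yolk genes had medians of 1.28 on day 1 and -1.45 on day 2 in descendants with 0 called on either day, and the moulting genes -0.05 and 0.50 with 0 and 2 called. Their part in the change of the collagens was not tested.

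In F5 descendants no collagen passed the test by limma. The count was 0 of 147 members with the days pooled (0.00% of all probe sets), on either day (0.00961% on day 1, 0.00% on day 2) and for the change between days (0.00961%). No member had an unadjusted p under 0.05 in any of these. The members' pooled differences ran from -0.17 to 0.26. Dpy-7 read 10.46, 10.43, 10.24, 10.29 and 10.56 in descendants, and col-19 read 7.19, 6.09, 5.70, 6.49 and 6.37, within or beside the controls given above. This comparison has 5 descendant arrays.

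**Figure D5:**
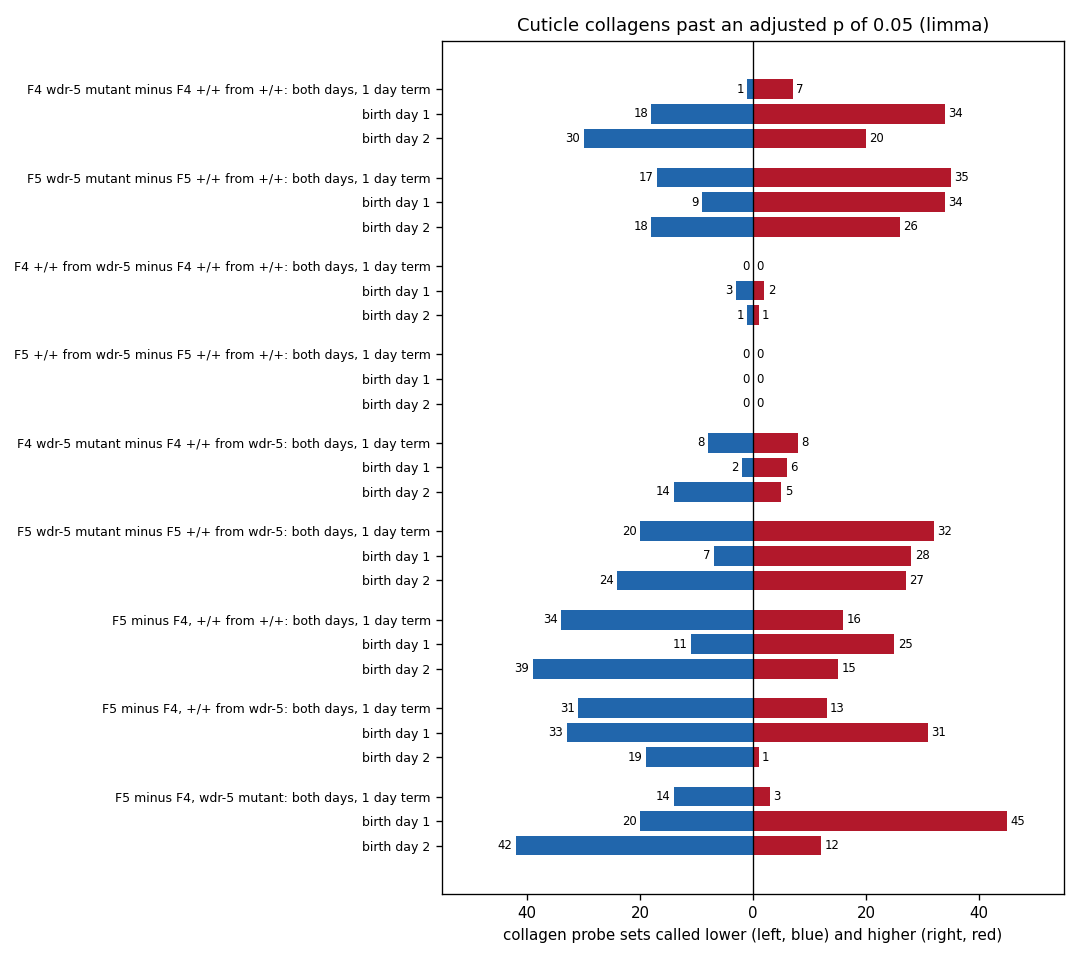
Number of the 147 collagen probe sets called lower (left) and higher (right) at an adjusted p under 0.05, for 9 comparisons with the days pooled and on each birth day. The counts of F4 mutants against controls are 1 and 7 pooled but 18 and 34 on day 1 and 30 and 20 on day 2.

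Against the descendants rather than the controls, F4 mutants gave 8 rises and 8 falls with days pooled (5.85% and 5.95% of all probe sets). The 16 are 10.9% of members, beside 11.8% of all probe sets, so the collagens did not stand out in number. Col-142 rose most clearly, by 0.89 (SE 0.17), at 9.95, 10.10, 9.84, 9.15, 9.59 and 9.40 in mutants and 8.95, 9.06, 8.89, 8.50, 8.75 and 8.57 in descendants. No arrays of the groups overlapped on either day. Dpy-17 (0.29 ± 0.08) and col-103 (0.44 ± 0.10) rose too, and col-115 fell by 0.35 (SE 0.09). By day the counts were 6 and 2 on day 1, below the shares of all probe sets (8.31% and 6.17%), and 5 and 14 on day 2 (4.10% and 3.20%). The change between days was called in 2 members (1.36%), below the 2.39% of all probe sets; they were col-133 (-0.50 ± 0.11) and col-88 (-2.04 ± 0.53). Without 1 array the pooled count was 9 to 17, at its lowest without mutant replicate 5, and it was 10 without descendant replicate 1 or 5. The day 1 count was 5 without mutant replicate 2 or 3, and the day 2 count was 9 to 12 without mutant replicate 6 or descendant replicate 4, 5 or 6. Between days, 0 or 1 call was made without mutant replicate 1, 3, 4 or 6 or descendant replicate 2 to 6, and 7 without mutant replicate 5.

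F5 mutants against F5 descendants gave 32 rises and 20 falls (14.8% and 15.4%, or 30.3% together, of all probe sets), with col-91 (0.80 ± 0.14), col-142 (0.88 ± 0.18) and col-139 (2.69 ± 0.63) among the rises and lon-3 (-0.51 ± 0.10), col-149 (-0.45 ± 0.10) and dpy-7 (-0.56 ± 0.16) among the falls. On day 1, 28 rose and 7 fell (11.2% and 8.84%), and on day 2, 27 rose and 24 fell (9.78% and 10.7%). As shares of the members, the rises lie above these backgrounds, and the falls lie below them pooled and on day 1. The change between days was called in 0 members (0.0192% of all probe sets). An unadjusted limma p under 0.05 was found in 12 of 147 members and in 1437 of all 20806 probe sets. On day 1, where the descendants had 2 arrays, the count was 12 without descendant replicate 1, 10 without descendant replicate 2 and 19 without mutant replicate 1. On day 2 it was 33 without mutant replicate 5.

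Between generations, controls had lower levels of several collagens known by number and higher levels of furrow collagens in F5. The F5 controls had 16 members higher and 34 lower than F4 controls (11.7% and 3.43% of all probe sets). By day the counts were 25 and 11 on day 1 (17.3% and 4.35%) and 15 and 39 on day 2 (8.46% and 7.70%). As shares of the members, the rises lie near the background pooled and on day 1, and the falls lie above it. After quantile normalization the day 1 counts were 2 and 8. A change between days was called in 35 members, 6 higher and 29 lower (2.38% and 7.91%). Pooled falls were largest in col-139 (-2.77 ± 0.59), and col-120 (-2.42 ± 0.43) and col-60 (-2.24 ± 0.40) also fell. Dpy-8 (0.71 ± 0.15), dpy-2 (0.61 ± 0.17) and rol-6 (0.60 ± 0.15) rose. Without F4 control replicate 4 the pooled count was 31. On day 1 it was 20 to 23 without F4 control replicate 1 or F5 control replicate 1 or 2. From day to day it gave 18 to 23 without F4 control replicate 1 or 4 or F5 control replicate 1, 5 or 6.

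In descendants 13 members were higher and 31 lower in F5 than in F4 (11.2% and 2.36%), so the rises lie below the background and the falls above it. Col-60 fell by 2.65 (SE 0.42) and col-120 by 2.75 (SE 0.45), and col-149 rose by 0.70 (SE 0.10). By day the counts were 31 and 33 (24.9% and 7.93%) and 1 and 19 (2.39% and 0.899%), and the change between days was called in 11, 1 higher and 10 lower (1.24% and 5.75%). Leaving out descendant replicate 1 or 2 of either generation took the pooled count to between 24 and 27, and leaving out F5 replicate 2 took the day 1 count to 34. The day 2 count was 11 without F4 replicate 6 and 13 without F5 replicate 4. Between days, 2 to 7 calls were made without F4 replicate 1, 3 or 5 or F5 replicate 2, 4 or 5.

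In mutants the difference between generations depended on the day. Pooled, 3 members were higher and 14 lower in F5 (8.60% and 2.33%), and 0 and 23 after quantile normalization. As shares of the members, the pooled rises lie below the background and the falls above it. On day 1, 45 were higher and 20 lower (29.0% and 8.43%), with the rises near that background. On day 2 the counts were 12 and 42 (8.25% and 9.86%). The change between days was called in 83 members, 23 higher and 60 lower (11.4% and 27.0%). Dpy-9 changed between days by -1.22 ± 0.18 and dpy-2 by -1.19 ± 0.18, while col-139 changed by 3.11 ± 0.72 and col-120 by 2.61 ± 0.62. Without F5 mutant replicate 6 the day 2 count was 83 and the pooled count 11. The day 1 count was 39 without F4 mutant replicate 3 or F5 mutant replicate 2 and 35 without F5 mutant replicate 3. Over all probe sets the day 1 median difference was 0.12, and it was 0.02 after quantile normalization, which gave 20 higher and 22 lower members in place of 45 and 20. For controls on day 1 that normalization gave 2 higher and 8 lower members in place of 25 and 11, and sqt-3 changed sign in the day 1 comparison of all 3 groups.

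Col-37 was lower in F5 than in F4 in every group on day 1. It read 6.58, 6.43 and 6.31 in F4 controls and 4.77, 4.53 and 4.32 in F5 controls. In F4 descendants it read 6.24, 6.26 and 6.24, and in F5 descendants 4.65 and 4.53. In mutants it went from 6.24, 6.03 and 6.18 to 4.38, 4.52 and 4.38. Every F5 array of day 1 was thus below every F4 array. The differences were -1.90 ± 0.12, -1.66 ± 0.13 and -1.73 ± 0.12. On day 2 the arrays of all groups lay between 5.07 and 5.83; mutants fell by 0.38 (SE 0.12), and the other groups were not called (0.03 and -0.08). The change between days passed in all 3 groups, at 1.93 ± 0.17, 1.58 ± 0.18 and 1.35 ± 0.17.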

How the data were processed

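RNA of whole worms was measured on arrays, 35 samples in 6 groups and 2 birth days. The authors deposited log2 values, made with RMA per the submitters' processing notes; the log base was read from the values and no version is given in the sources used here. The 5th percentile was 3.04 to 3.23 on the 17 arrays of day 1 and 4.12 to 4.21 on the 18 of day 2, while array medians ran from 5.35 to 5.50, so the days were taken to be normalized separately. No array and no low probe set was left out, and arrays carry no read depth: their number limits the precision.

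Linear models were run in limma 3.58.1 (R 4.3.3), with lmFit followed by eBayes and its trend option. Direct comparisons used 6 group means and birth day within generation (27 residual degrees of freedom), comparisons of generations 6 group means and 1 birth day term (28), and values by day and changes between days a mean per group and day (23). P-values were adjusted over 20806 probe sets. The fit was tested on simulated data with independent noise for each probe set and array. That test does not cover genes that vary together, as many collagens did here.

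Members matched the RefSeq gene table by transcript accession (128) or symbol (19). The members and gene lists were chosen with earlier results of these data known. Named genes are, per comparison, up to 8 members of smallest p in each direction past the threshold (5 of smallest p where fewer than 3 passed), the 16 shape and strut collagens, the members of the adult, L4, dauer and lifespan lists, and up to 3 genes of each other list; a gene with several probe sets is given by that of highest mean. Other genes named were chosen after their values were seen. Same-numbered arrays of different groups deviated together at r = -0.295 to 0.317, over 0.1 in 11 of 34 pairs, so the numbers were not taken to pair samples. Alternatives were quantile normalization, no trend, a filter on low levels, repeats kept once, a replicate block, no birth day term, single days and leaving out each array.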

Additional observations from a re-analysis of the deposited data

Results flagged for a closer look

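The difference from controls varied between birth days in 70 members in F4 mutants (47.6%, beside 33.0% of all probe sets), 22 in F4 descendants (beside 1.81%) and 2 in F4 mutants against descendants (1.36%, below the 2.39% of all probe sets). The difference between generations varied between days in 35 members in controls (beside 10.3% of all probe sets), 11 in descendants (beside 6.99%) and 83 in mutants (beside 38.5%). The mutant difference changed from F4 to F5 on day 2 in 64 members (beside 20.2%).

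In F4 mutants the change from day 1 to day 2 was called for 15 of 17 collagens examined by array, several of which were picked for such changes, so this share is no evidence beyond the 70 of 147 members. It was downward for col-19 (-5.62), col-81 (-6.06), col-139 (-5.48), col-120 (-3.20), col-38 (-1.34), col-91 (-0.77) and col-142 (-1.24). It was upward for col-41 (3.87), dpy-7 (1.21), dpy-8 (1.34), rol-6 (1.03), lon-3 (0.54), col-149 (0.67), col-128 (1.53) and col-37 (0.45). In F4 descendants it was called for col-81 (-3.09), col-139 (-3.07), col-91 (-1.02), col-142 (-1.02), dpy-7 (1.02), dpy-8 (1.10) and col-128 (1.17).

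A single array stood apart from the other 5 of its group for 1 gene: col-142 read 10.23 on F4 control replicate 4. The check took both birth days of a group together, so it does not compare arrays within a day. This was 1 of 102 combinations of gene and group examined. The nominal rate of chance flags, about 1 in 20, assumes no difference between birth days, so it need not hold here.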

How the results depend on the processing

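Of 425 recomputed counts of called collagens, 335 were within 1.5 times of the value reported and 90 were not; the causes were not tested. With no birth day term the pooled count was 0 instead of 8 in F4 mutants against controls, 3 instead of 16 against descendants, 33 and 29 instead of 52 in F5 mutants against controls and descendants, and 27, 18 and 0 instead of 50, 44 and 17 for F5 minus F4 in controls, descendants and mutants. With a replicate block in place of birth day, F4 mutants against descendants gave 10. That block left 294 single-gene results on their side of the threshold, with 12 lost and 1 gained. On the arrays of 1 day alone, F4 descendants gave 0 on day 1 and 0 on day 2, which uses fewer samples. Quantile normalization gave 2 for F4 descendants on day 1; for F5 minus F4 it gave 10 (controls, day 1), 42 (mutants, day 1), and 21 and 1 for the change between days in controls and descendants. It also moved the higher and lower split to 17 and 33 (descendants, day 1), 5 and 34 (descendants, pooled), 0 and 23 (mutants, pooled), 26 and 30 (F5 mutants against controls, day 2), 27 and 33 (F5 mutants against descendants, day 2), 9 and 15 (F4 mutants against descendants, day 2) and 33 and 38 (mutant difference, day 2). It turned the sign of sqt-3 for F5 minus F4 on day 1 (-0.042 in controls, -0.058 in descendants, -0.069 in mutants) and between days in mutants (0.013), and of dpy-13 in descendants (-0.033 on day 1, 0.033 between days).

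Leaving out each array in turn gave these ranges. F4 descendants against controls had 0 to 11 on day 1, 0 to 11 on day 2 and 7 to 31 between days; F4 mutants against controls had 2 to 9 pooled, 45 to 60 on day 1, 34 to 50 on day 2 and 62 to 76 between days. F4 mutants against descendants had 9 to 17 pooled, 5 to 9, 9 to 19 and 0 to 7 in the same order. F5 mutants had 45 to 60, 32 to 45 and 31 to 57 against controls, and 42 to 56, 10 to 39 and 33 to 57 against descendants. For F5 minus F4 the ranges were 31 to 52, 20 to 34, 38 to 54 and 18 to 37 in controls, 24 to 42, 34 to 63, 11 to 19 and 2 to 13 in descendants, and 11 to 20, 35 to 90, 37 to 83 and 65 to 103 in mutants. The count with all arrays lay above its range in controls on day 1 (36). The same held in descendants pooled (44), on day 1 (64) and on day 2 (20), so each omission tried lowered these counts. On day 2, leaving out F5 mutant replicate 5 or 6 moved col-138 (-0.47 to 0.73), col-38 (-0.47 to 0.61), col-63 (-0.57 to 0.70) and col-175 (-0.64 to 0.65) against descendants, and col-63 (-0.52 to 0.75) and col-175 (-0.47 to 0.82) for F5 minus F4. Counts at 0 in F5 descendants and in pooled F4 descendants were 0 without any 1 array.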
